A study of Arabidopsis thaliana with 24 samples.

Results

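The genes described here are 39 nuclear genes for proteins of the plastid ribosome, out of 24497 genes in a deposited table of Arabidopsis thaliana root tips. They were picked by gene identifier from a list drawn up by protein function, and the rule used no measured value. The list was, however, chosen with earlier results of these data known. Of the 39 genes, 9 encode proteins of the small subunit, 24 encode proteins of the large subunit and 6 encode proteins listed as plastid-specific. All 39 genes were in the table, and all 39 passed the filter on low counts that 19567 genes passed.

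The plastid ribosome is of the bacterial type and is built from ribosomal RNAs and a set of proteins encoded in the plastid together with a larger set of proteins encoded in the nucleus. The nuclear-encoded proteins are made in the cytosol, imported into plastids and assembled there with the plastid-encoded parts. Roots hold non-green plastids, which keep a genome and translate it. Spectinomycin binds the RNA of the small subunit of bacterial-type ribosomes and blocks plastid translation. GUN1 is a plastid pentatricopeptide repeat protein known for signalling from plastids to the nucleus, and NAC103 is a transcription factor of the NAC family.

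Libraries were made from excised root tips (about 0.5 cm) of seedlings that had grown for about 5 days on Murashige and Skoog medium with 1% sucrose before transfer. The groups were gun1-101, nac103-11, NAC103-OX and WT (labelled Col), each on spectinomycin (10 mg/L) and on control medium, with 3 libraries a group and 24 libraries in all. NAC103-OX carries the transgene 35S:NAC103-GFP, in which the 35S promoter, active in most plant cells, drives a GFP fusion of NAC103. Each altered genotype is named as a single line. The labels give the time on spectinomycin as about 16 h in one place and about 24 h in another. The series asks how GUN1 and NAC103 relate when plastid translation is disturbed. The libraries are labelled as biological replicates, with no statement of separate plates or days, so the p-values below measure the spread between these libraries. The batch tag in the labels is the group name, so batch and group cannot be told apart.

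Libraries held 13012576 to 17411872 counts, of which the 39 genes took 0.0927% to 0.147%. GUN1 (AT2G31400) was at 82.0, 81.6 and 93.8 normalised counts (CPM, scaled to library size) in gun1-101 and 150.1, 149.9 and 144 CPM in WT on control medium, so its transcript was lower and still present in the gun1-101 libraries. NAC103 (AT5G64060) was at 17.9, 16.6 and 17.6 CPM in NAC103-OX and 0.733, 0.917 and 0.641 CPM in WT on control medium. In nac103-11 on control medium NAC103 was at 0.533, 0.541 and 0.777 CPM, a range that overlapped WT at this low level, so the transcript is no check of that label there, while on spectinomycin it was at 0.129, 0 and 0.113 CPM in nac103-11 and 0.568, 0.515 and 0.591 CPM in WT. WT control replicate 2 stood apart from its group: the chi-square per degree of freedom between its counts and those of replicates 1 and 3 was 8.90 and 9.02, against 1.81 between replicates 1 and 3, and it had the highest summed level of 10 green-tissue markers in that group, 583 TPM. Counts of genes that rest on WT control libraries are therefore also given without it. Of 10 markers of shoot and leaf, 8 were in the table and none passed 0.44 TPM in any library, while markers of root meristem, root cap, root hair and endodermis were detected.

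CPM values below are scaled by TMM factors (edgeR), which were 0.891 to 0.931 in gun1-101, 0.923 to 0.930 in nac103-11 on control medium and 1.01 to 1.09 in the remaining groups. With library totals in place of TMM, the median log2 fold change of all genes tested moved to -0.27 for gun1-101 against WT on spectinomycin, -0.18 for gun1-101 against WT on control medium, -0.14 for nac103-11 against WT on control medium, 0.13 for the WT response and 0.18 for the nac103-11 response. Counts of genes for these comparisons therefore depend on the scaling, as given beside each of them. Shares of all genes tested are given with TMM only, so counts with library totals or limma have no such share beside them. Levels are compared between genes only in TPM, which divides by transcript length and is not TMM-scaled.

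All 39 genes were expressed at moderate to high levels. Mean TPM over the 24 libraries placed them at percentiles 53.8 to 92.6 of all genes in the table. Among the highest were PSRP4 with 104.23 TPM and PSRP5 with 102.96 TPM. The lowest were a gene for RPL19 (AT5G47190) with 18.5 TPM, PSRP3 with 17.99 TPM and the other RPL19 gene (AT4G17560) with 12.49 TPM. Proteins of one complex were thus encoded by transcripts whose mean levels spanned 8.34-fold, and the deposited FPKM values gave each of the 39 genes the same rank.

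Summed over the 39 genes, NAC103-OX root tips held the most plastid ribosomal protein transcript and gun1-101 root tips on control medium the least. The sum was 1777 ± 18.3 TPM in gun1-101 on spectinomycin and 1637 ± 21.9 TPM in gun1-101 on control medium (SD, n = 3 for each group in this paragraph). It was 2194 ± 25.1 TPM in nac103-11 on spectinomycin and 1878 ± 5.52 TPM in nac103-11 on control medium. It was 2461 ± 19.2 TPM in NAC103-OX on spectinomycin and 2513 ± 40.7 TPM in NAC103-OX on control medium, so the groups of this line overlapped. It was 2229 ± 45.4 TPM in WT on spectinomycin and 1782 ± 88.8 TPM in WT on control medium. The nac103-11 and WT groups on spectinomycin overlapped, and so did the nac103-11 and WT groups on control medium and the gun1-101 group on spectinomycin with WT on control medium. On the TPM scale the highest of the 8 group means was NAC103-OX on control medium for 18 genes and NAC103-OX on spectinomycin for 17 genes. The lowest group mean was gun1-101 on control medium for 30 genes and WT on control medium for 5 genes. On the TMM-scaled CPM scale the lowest group was WT on control medium for 19 genes and gun1-101 on control medium for 13 genes, so the order of these groups at the low end depends on the scaling.

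**Figure D1:**
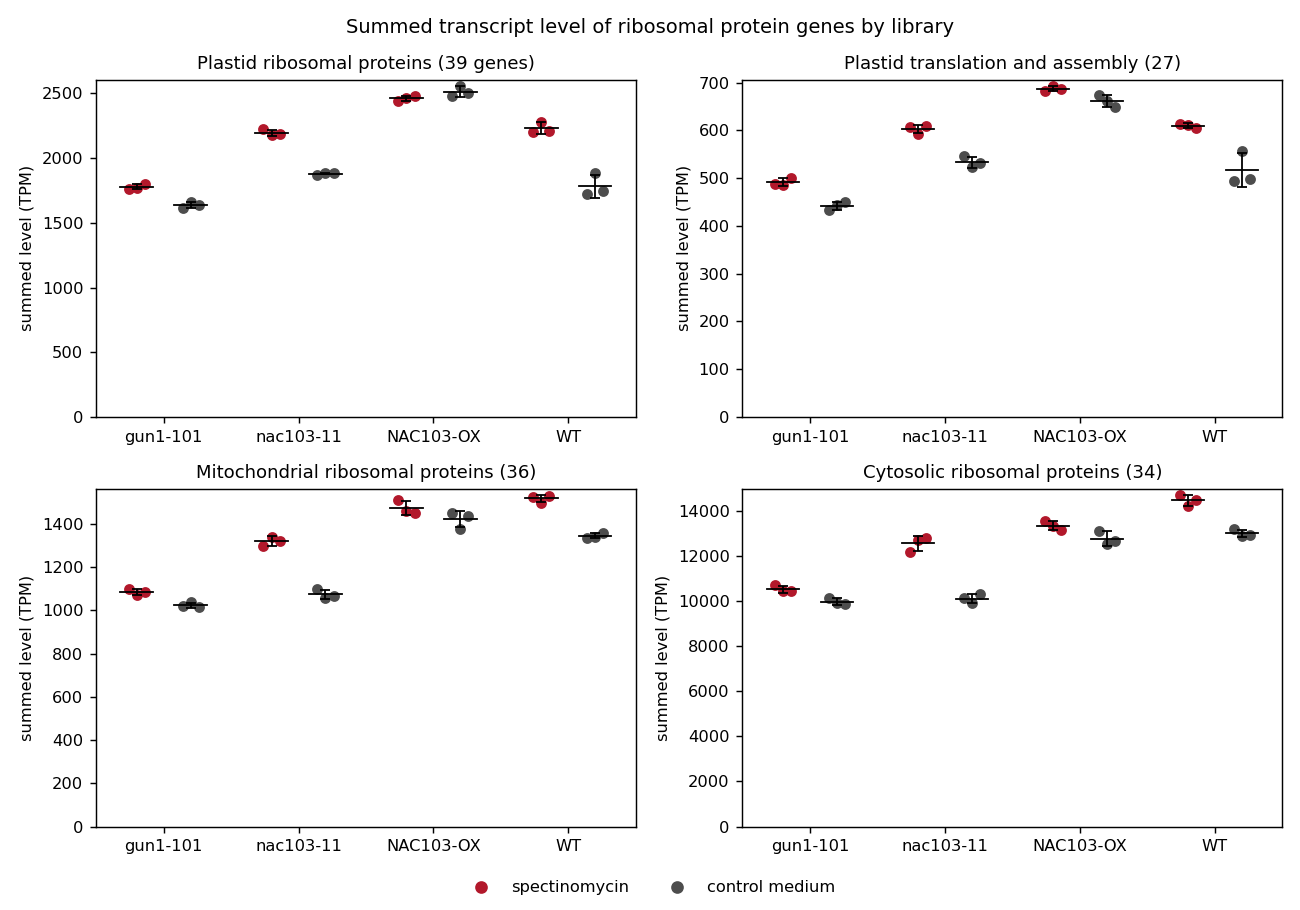
Summed level in TPM of the plastid ribosomal protein genes, of plastid translation and assembly genes, and of mitochondrial and cytosolic ribosomal protein genes, by genotype, with spectinomycin in red and control medium in grey. Points are libraries, bars are means ± SD (n = 3). On control medium the plastid ribosomal protein sum was highest in NAC103-OX, as were the plastid translation and mitochondrial sums. The cytosolic sum in NAC103-OX lay near that of WT.

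On control medium, NAC103-OX root tips had more transcript than WT root tips for nearly every plastid ribosomal protein gene. Of the 39 genes, 36 rose and 0 fell (edgeR quasi-likelihood test, Benjamini-Hochberg adjusted p under 0.05 over all genes tested), while 22.8% of all genes tested were higher and 22.6% were lower. The 39 log2 fold changes were all positive, from 0.13 to 1.08, with a median of 0.45 against 0.0026 for all genes tested. The libraries of NAC103-OX and WT did not overlap, with NAC103-OX higher, for 36 of the 39 genes, and that held for 24.7% of all genes tested. Without WT control replicate 2, 38 genes rose and the median was 0.49, while 22.8% of all genes tested were higher and 22.7% lower. In such bulk samples, fewer cells of a type and less RNA per cell cannot be told apart. The 10 green-tissue markers summed to 617 to 638 TPM in NAC103-OX and 283 to 583 TPM in WT, with 6 of 10 higher and 1 lower. Without WT control replicate 2, 8 of 10 were higher and 1 lower, with a median log2 fold change of 0.94. The 8 markers of dividing cells summed to 54.3 to 62.0 TPM in NAC103-OX and 63.9 to 67.1 TPM in WT, with 0 higher and 3 lower (0 and 4 without WT control replicate 2). None of the dividing-cell markers was at 0 in a library, and of the green-tissue markers AT3G01500 was. The part of these differences in the result was not tested.

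Among small-subunit genes, 9 of 9 rose in NAC103-OX on control medium, with a median log2 fold change of 0.38. RPS6 was at 25.5, 28.2 and 27.9 CPM in NAC103-OX and 17.3, 19.3 and 17.5 CPM in WT, with a log2 fold change of 0.59 ± 0.089 (adjusted p = 5.08e-07). RPS1, the counterpart of the bacterial protein that holds messenger RNA on the ribosome, had 0.38 ± 0.068. RPS13, RPS10, RPS21, RPS9 and RPS20 had log2 fold changes of 0.24 to 0.42.

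Among large-subunit genes, 21 of 24 rose, with a median of 0.46. RPL13, annotated by RefSeq as the embryo-defective locus emb1473, was at 42.7, 41.2 and 42.4 CPM in NAC103-OX and 23.3, 25.2 and 25.0 CPM in WT. Every NAC103-OX library was above every WT library, and RPL13 had the smallest p of the 39 genes (log2 fold change 0.78 ± 0.062, adjusted p = 2.12e-14). RPL27, whose bacterial counterpart reaches towards the peptidyl transferase centre, was at 44.0, 43.5 and 43.9 CPM in NAC103-OX and 26.3, 28.8 and 27.4 CPM in WT (log2 fold change 0.67 ± 0.064, adjusted p = 5.80e-12). RPL5, whose bacterial counterpart binds the 5S ribosomal RNA, was at 35.4, 34.9 and 35.0 CPM in NAC103-OX and 20.3, 24.7 and 21.2 CPM in WT (log2 fold change 0.67 ± 0.072). RPL35 rose by a log2 fold change of 0.75 ± 0.081. RPL3, whose bacterial counterpart acts early in large-subunit assembly, had 0.63 ± 0.077. The smallest called value in this class was that of RPL21, 0.27 ± 0.078. RPL6 and RPL19 (AT4G17560) passed the test but overlapped between the groups. RPL6 lost its call in 2 of 15 settings, with the highest adjusted p (0.105, edgeR) without WT control replicate 1. RPL19 (AT4G17560) lost it in 8 of 15 settings, with the highest adjusted p (0.325) without NAC103-OX control replicate 1.

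The 3 genes that did not pass the test were all of the large subunit. RPL1, of the stalk that handles the outgoing tRNA in bacterial ribosomes, was at 52.7, 57.0 and 54.3 CPM in NAC103-OX and 48.0, 54.9 and 46.3 CPM in WT, and the groups overlapped (log2 fold change 0.13 ± 0.060, 95% interval 0.02 to 0.25). RPL11, at the base of the stalk that recruits translation factors, had an interval of 0.03 to 0.38. RPL19 (AT5G47190) had an interval of 0.02 to 0.45. These intervals come from the SE and are not adjusted for multiple tests.

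All 6 plastid-specific genes rose in NAC103-OX on control medium, with a median of 0.50. PSRP3, a small-subunit protein with no counterpart in the Escherichia coli ribosome, showed the largest change of the 39 genes. It was at 14.2, 12.4 and 13.4 CPM in NAC103-OX and 6.29, 6.71 and 5.91 CPM in WT, a 2.11-fold difference (log2 fold change 1.08 ± 0.11, adjusted p = 2.49e-11). AT5G24490, which RefSeq annotates as a 30S ribosomal protein, was at 94.2, 90.1 and 79.1 CPM in NAC103-OX and 54.0, 65.5 and 58.1 CPM in WT (log2 fold change 0.57 ± 0.098). The RNA-binding protein gene PSRP2 had 0.49 ± 0.068 and PSRP4 had 0.50 ± 0.069 on the log2 scale. The large-subunit proteins PSRP6 and PSRP5 had log2 fold changes of 0.38 ± 0.091 and 0.27 ± 0.067.

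**Figure D2:**
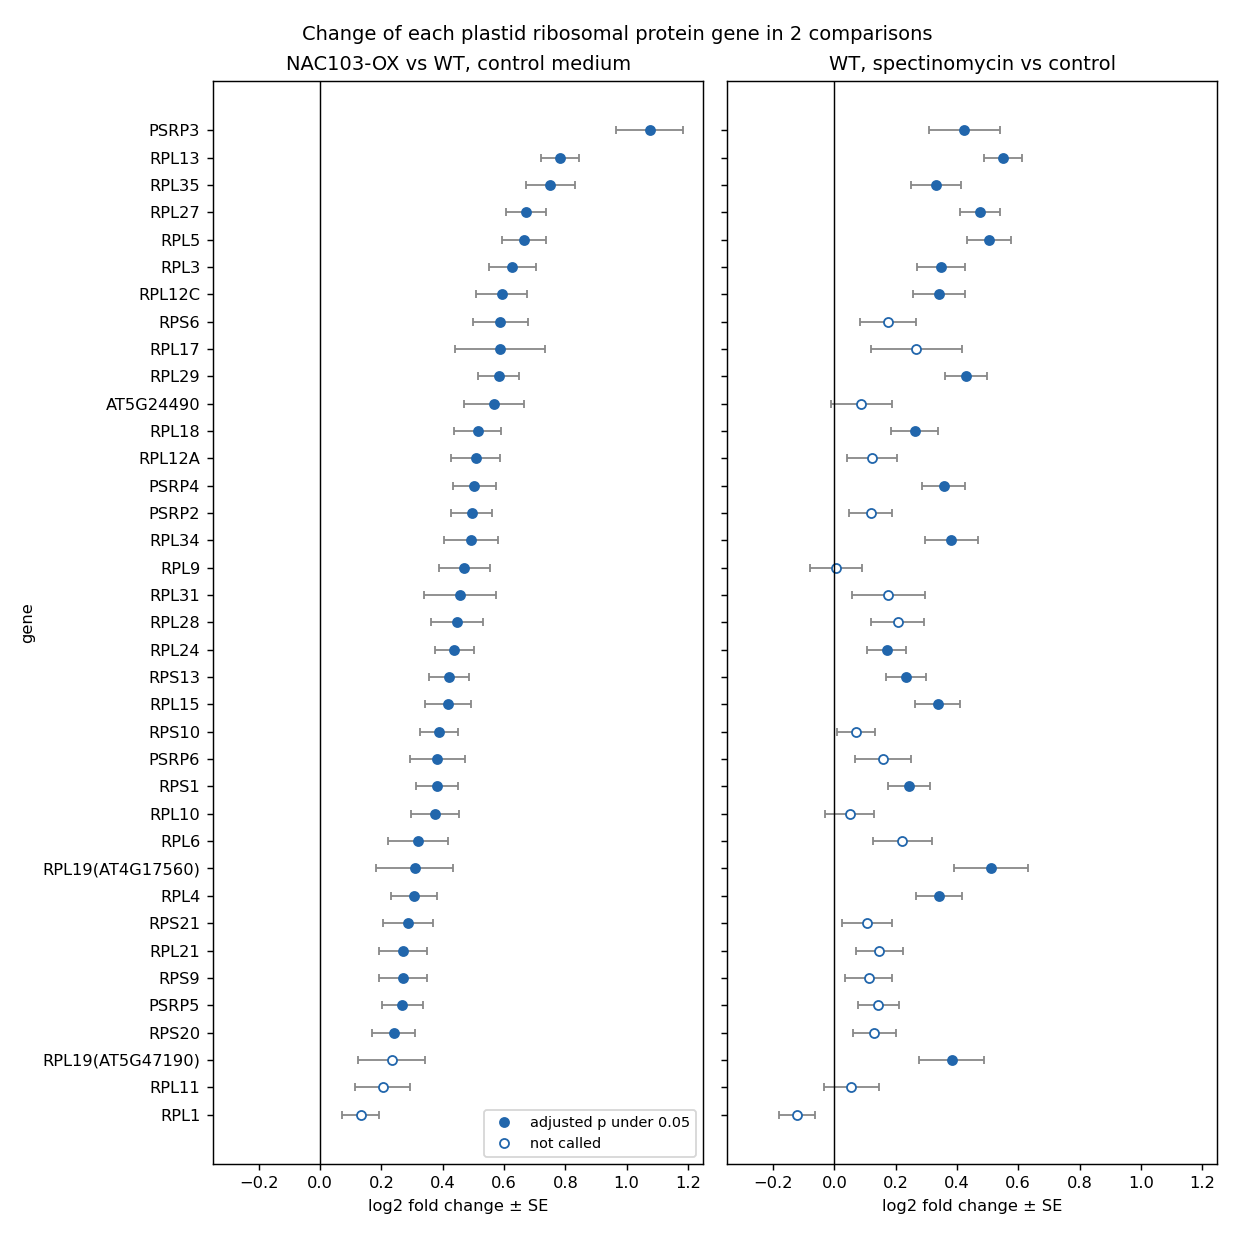
Log2 fold change ± SE of 37 of the 39 genes for NAC103-OX against WT on control medium (left) and for WT on spectinomycin against WT on control medium (right), sorted by the left panel. Filled points passed the adjusted p threshold of 0.05, which 34 of those drawn did on the left and 18 on the right. Both panels use the same WT control libraries, so the panels are not independent.

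In WT root tips many plastid ribosomal protein genes rose on spectinomycin, led by large-subunit genes such as RPL13, RPL5 and RPL27. Of the 39 genes, 19 rose and 0 fell, while 40.6% of all genes tested changed, 20.1% rising and 20.4% falling. The median log2 fold change was 0.22, against 0.033 for all genes tested, and 38 of 39 values were above 0. For 23 genes every spectinomycin library was above every control library, which held for 23.7% of all genes tested. Without WT control replicate 2, 23 genes rose with a median of 0.26, while 20.6% of all genes tested rose and 20.8% fell. With library totals in place of TMM, 33 rose and 0 fell, and the median of all genes tested also moved up, as given above. The 10 green-tissue markers summed to 737 to 774 TPM on spectinomycin and 283 to 583 TPM on control medium, with 9 higher and 1 lower (9 and 0 without WT control replicate 2). Their part in the result was not tested. The comparison uses the same WT control libraries as NAC103-OX against WT, so the values stand side by side and are not an independent repeat of each other.

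In the large subunit 14 of 24 genes rose in WT, with a median of 0.30. In the small subunit 3 of 9 rose (median 0.16), and among the plastid-specific genes 2 of 6 rose (median 0.15), and a difference between these classes was not tested. RPL13 was at 35.9, 35.6 and 36.1 CPM on spectinomycin and 23.3, 25.2 and 25.0 CPM on control medium, the largest log2 fold change of the 39 (0.55 ± 0.062, adjusted p = 6.41e-10). RPL5 was at 30.4, 31.4 and 32.3 CPM on spectinomycin and 20.3, 24.7 and 21.2 CPM on control medium (a log2 fold change of 0.50 ± 0.072, adjusted p = 1.84e-07). In both genes the groups were apart. RPL27 had a log2 fold change of 0.48 ± 0.064, with 37.4, 36.3 and 41.0 CPM on spectinomycin and 26.3, 28.8 and 27.4 CPM on control medium. RPL29, a protein near the exit of the nascent chain in bacterial ribosomes, was at 43.3, 46.9 and 41.6 CPM on spectinomycin and 29.2, 37.5 and 30.7 CPM on control medium (a log2 fold change of 0.43 ± 0.068). WT control replicate 2 was the highest of the control libraries for RPL13, RPL5, RPL27 and RPL29. RPL34, RPL3, RPL4, RPL12C, RPL15, RPL35, RPL18 and RPL24 also rose, with log2 fold changes of 0.17 to 0.38. RPL24 lost its call in 6 of 15 settings. Among them were the runs without WT spectinomycin replicate 2 (edgeR adjusted p = 0.157), WT control replicate 1 (0.102) or WT control replicate 2 (0.0515).

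In the small subunit RPS1 and RPS13 were among the genes that rose in WT, with log2 fold changes of 0.24 ± 0.068 and 0.23 ± 0.065. Among the plastid-specific genes PSRP3 was at 8.71, 7.95 and 8.81 CPM on spectinomycin and 6.29, 6.71 and 5.91 CPM on control medium (a log2 fold change of 0.42 ± 0.11, adjusted p = 0.00249). PSRP4 also rose, with a log2 fold change of 0.36 ± 0.069. The genes with the smallest values were RPL10, the anchor of the factor-recruiting stalk, RPL9 and RPL1. RPL10 was at 22.9, 26.3 and 24.9 CPM on spectinomycin and 22.3, 24.1 and 25.4 CPM on control medium, and RPL9 was at 15.3, 14.6 and 14.1 CPM on spectinomycin and 13.2, 16.0 and 14.5 CPM on control medium. Both genes overlapped between the groups, with 95% intervals of -0.11 to 0.21 and -0.16 to 0.17 on the log2 scale. RPL1 was the single gene with a negative value, -0.12 ± 0.060, at 43.7, 47.7 and 46.1 CPM on spectinomycin and 48.0, 54.9 and 46.3 CPM on control medium. It missed the threshold with all libraries (adjusted p = 0.103) and passed it as lower with RLE size factors (adjusted p = 0.0474) and without WT control replicate 3 (adjusted p = 0.0362).

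In NAC103-OX, few of these genes, and few of all genes tested, were called on spectinomycin. Of the 39 genes, 0 rose and 4 fell (10.3%), while 5.06% of all genes tested changed, 2.24% rising and 2.82% falling. The median of the 39 was -0.069. RPL18, whose bacterial counterpart binds the 5S ribosomal RNA, was at 26.0, 23.8 and 26.8 CPM on spectinomycin and 31.7, 30.1 and 32.4 CPM on control medium (a log2 fold change of -0.30 ± 0.075, adjusted p = 0.0121). RPL13 was at 34.9, 35.6 and 38.1 CPM on spectinomycin and 42.7, 41.2 and 42.4 CPM on control medium (a log2 fold change of -0.22 ± 0.058, adjusted p = 0.0206). PSRP6 had -0.32 ± 0.090. In these genes the groups did not overlap, but the count was 2 without NAC103-OX spectinomycin replicate 1, 0 without replicate 2 and 2 without replicate 3. It was 1 without NAC103-OX control replicate 1, 1 without control replicate 3, and 0 with limma on log2(TPM + 1).

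The responses of NAC103-OX and WT to spectinomycin differed for many of these genes. In the test of the difference itself, 22 of 39 genes had a lower response in NAC103-OX than in WT and 0 had a higher one, while 15.1% of all genes tested were lower and 16.4% were higher. The median difference was -0.32. Without WT control replicate 2 the count was 26 lower and 0 higher, while 16.9% of all genes tested were lower and 17.5% higher. The green-tissue markers moved with these genes: 7 of 10 had a lower response in NAC103-OX and 0 a higher one, with a median difference of -1.03. Without WT control replicate 2, 8 of 10 were lower and 0 higher. Of 3 endodermis markers 2 had a higher response and 0 a lower one. The part of these markers in the result was not tested. RPL13 had the largest difference, -0.77 ± 0.085 (adjusted p = 8.12e-10): its log2 fold change on spectinomycin was -0.22 ± 0.058 in NAC103-OX and 0.55 ± 0.062 in WT. For RPL5 the difference was -0.72 ± 0.10 (adjusted p = 1.53e-07), with -0.22 ± 0.069 in NAC103-OX and 0.50 ± 0.072 in WT. By class, 4 of 9 small-subunit genes, 15 of 24 large-subunit genes and 3 of 6 plastid-specific genes had the lower response.

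On spectinomycin, NAC103-OX and WT were closer to each other than the values on control medium, yet 12 of 39 genes were still higher in NAC103-OX and 0 were lower. Of all genes tested, 8.45% were higher and 8.32% lower, and the median of the 39 was 0.14. PSRP3 was at 13.7, 12.2 and 13.4 CPM in NAC103-OX and 8.71, 7.95 and 8.81 CPM in WT (log2 fold change 0.63 ± 0.10, adjusted p = 8.48e-06). RPS10, whose bacterial counterpart also acts in transcription antitermination, was at 58.2, 58.4 and 59.2 CPM in NAC103-OX and 45.3, 49.4 and 43.6 CPM in WT (log2 fold change 0.35 ± 0.061, adjusted p = 4.11e-05). PSRP2 was at 35.4, 34.6 and 38.3 CPM in NAC103-OX and 28.2, 29.7 and 26.9 CPM in WT (log2 fold change 0.36 ± 0.066, adjusted p = 9.79e-05). In each of these 3 genes all NAC103-OX libraries were above all WT libraries. RPL13 overlapped between the genotypes on spectinomycin, at 34.9, 35.6 and 38.1 CPM in NAC103-OX and 35.9, 35.6 and 36.1 CPM in WT. The count of 12 was 6 without WT spectinomycin replicate 1 and 7 without NAC103-OX spectinomycin replicate 2.

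**Figure D3:**
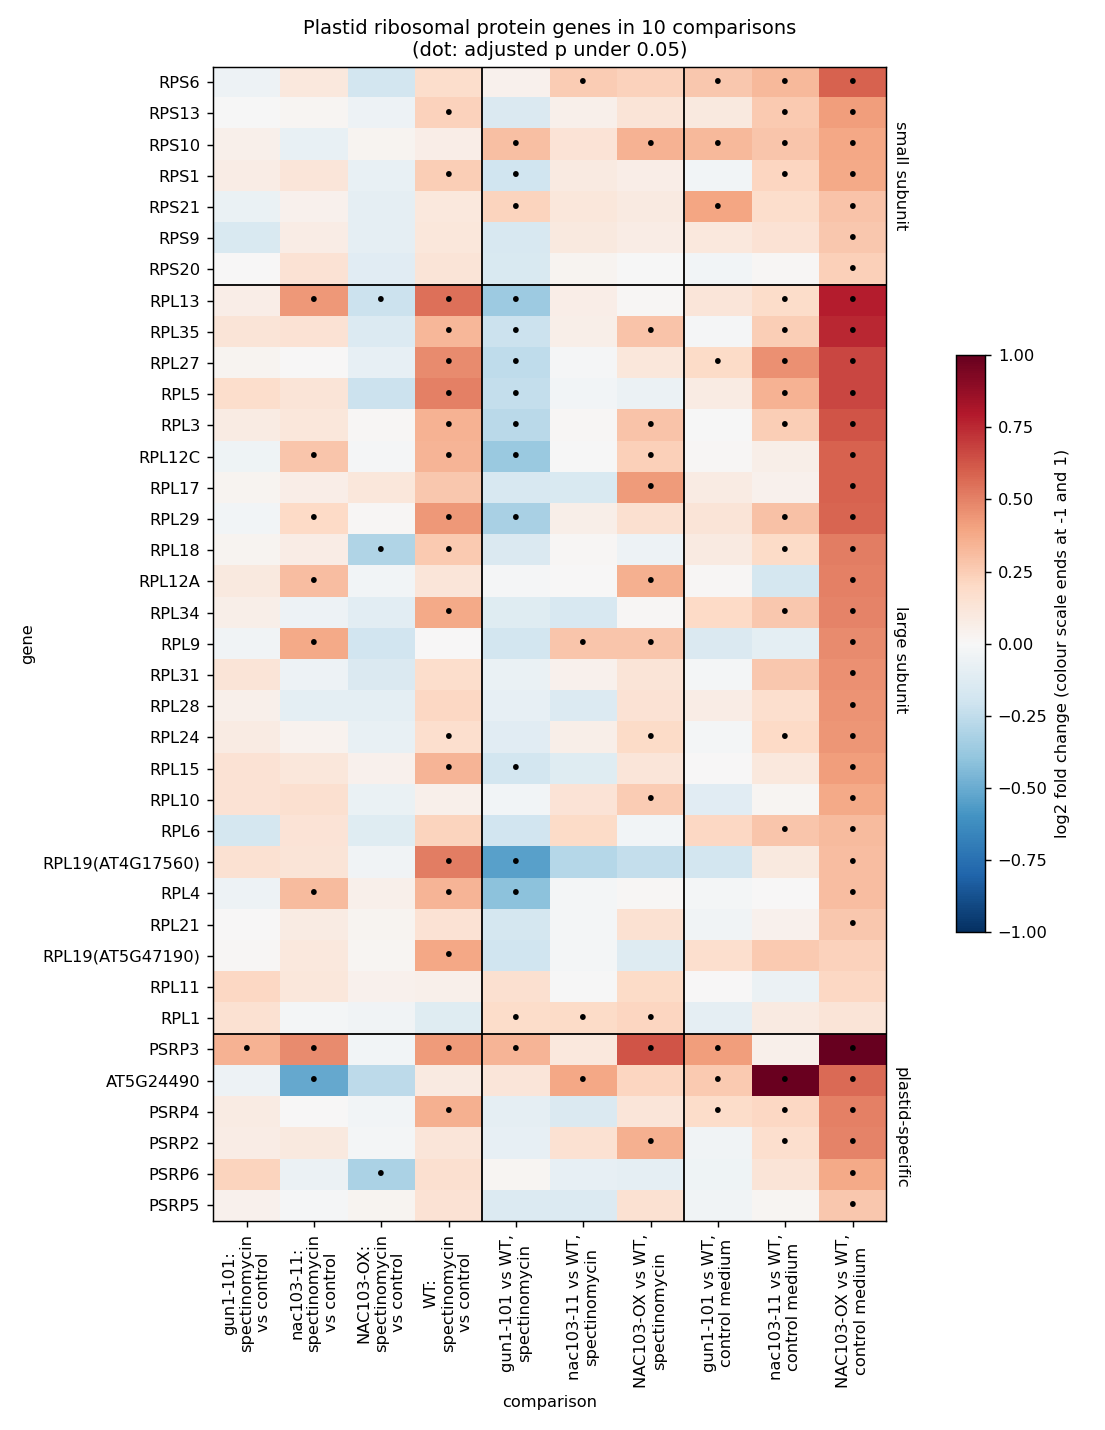
Log2 fold change of 37 of the 39 genes (rows, by subunit) in 10 comparisons (columns), with red for higher and blue for lower in the group named first, and a dot where the adjusted p was under 0.05. The rightmost column, NAC103-OX against WT on control medium, has 34 dots, and the NAC103-OX response has 3. Values are TMM-scaled, and in the gun1-101 comparisons with WT on control medium the direction of the counts depends on that scaling.

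In nac103-11 on control medium, 17 of 39 genes were higher than in WT and 0 were lower, while 23.2% of all genes tested were higher and 20.1% lower. The median was 0.17. Without WT control replicate 2 the counts were 19 higher and 1 lower, while 23.8% of all genes tested were higher and 20% lower. This result depends on the scaling: with library totals 3 genes were higher and 2 lower, and with limma on log2(TPM + 1) 4 were higher and 2 lower. AT5G24490 was higher under every setting run and was at 125, 118 and 109.8 CPM in nac103-11 and 54.0, 65.5 and 58.1 CPM in WT, a 1.98-fold difference (log2 fold change 0.99 ± 0.097, adjusted p = 5.64e-08). RPL27 was at 35.7, 38.3 and 39.4 CPM in nac103-11 and 26.3, 28.8 and 27.4 CPM in WT (log2 fold change 0.46 ± 0.066, adjusted p = 1.77e-07). RPL5 was at 28.6, 27.2 and 28.6 CPM in nac103-11 and 20.3, 24.7 and 21.2 CPM in WT (log2 fold change 0.35 ± 0.075, adjusted p = 0.000201). In all 3 genes the groups were apart. The 8 markers of dividing cells summed to 46.2 to 49.9 TPM in nac103-11 and 63.9 to 67.1 TPM in WT, with 5 of 8 lower. The 10 green-tissue markers had 2 higher and 3 lower (4 higher and 1 lower without WT control replicate 2). The part of both marker lists in the result was not tested. The comparison rests on the same WT libraries as that of NAC103-OX with WT.

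On spectinomycin, 8 genes rose and 1 fell in nac103-11 relative to its control medium, while 44.8% of all genes tested changed, 21.4% rising and 23.4% falling, so the share of rises was near that of all genes. With library totals 31 rose and 1 fell, and with limma on log2(TPM + 1) 30 rose and 1 fell. The median of all genes tested also moved up with library totals, as given above. Of the markers, 8 of 10 for green tissue and 3 of 8 for dividing cells also rose, with sums of 541 to 586 and 61.9 to 66.0 TPM on spectinomycin and 286 to 303 and 46.2 to 49.9 TPM on control medium, and their part was not tested. RPL13 was at 36.6, 39.8 and 36.1 CPM on spectinomycin and 27.5, 27.5 and 28.5 CPM on control medium (a log2 fold change of 0.43 ± 0.062, adjusted p = 1.58e-07). RPL9 was at 16.9, 17.9 and 18.4 CPM on spectinomycin and 13.8, 13.5 and 13.7 CPM on control medium (a log2 fold change of 0.38 ± 0.086, adjusted p = 0.000376). AT5G24490 was the gene that fell, at 75.9, 80.8 and 89.9 CPM on spectinomycin and 125, 118 and 109.8 CPM on control medium (a log2 fold change of -0.51 ± 0.093, adjusted p = 0.000137).

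The nac103-11 response was lower than the WT response for 5 of 39 genes and higher for 1, while 5.56% of all genes tested were lower and 6.20% higher. Without WT control replicate 2 the counts were 8 lower and 0 higher, while 8.02% of all genes tested were lower. Of the 10 green-tissue markers 2 had a lower response and 0 a higher one (6 and 0 without WT control replicate 2), and their part was not tested. RPL27 differed by -0.47 ± 0.090 (adjusted p = 0.000162), with 38.3, 38.1 and 37.4 CPM on spectinomycin and 35.7, 38.3 and 39.4 CPM on control medium in nac103-11, where the media overlapped. AT5G24490 differed by -0.60 ± 0.14 (adjusted p = 0.00521) and RPL5 by -0.37 ± 0.10 (adjusted p = 0.00993). The count was 3 without WT spectinomycin replicate 2. The gene with a higher response was RPL9, by 0.37 ± 0.12 (adjusted p = 0.0383). RPL9 lost this call in 11 of 21 settings, with the highest adjusted p (0.115, edgeR) without WT control replicate 2.

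On spectinomycin, nac103-11 and WT differed for few of these genes. The 4 that passed the test were all higher, a share below the 15.5% of all genes tested that were higher, and 11.1% of all genes were lower. With library totals 1 was higher and 5 were lower, so the direction of the count turns with the scaling. AT5G24490 was at 75.9, 80.8 and 89.9 CPM in nac103-11 and 66.1, 57.7 and 65.3 CPM in WT (log2 fold change 0.38 ± 0.096, adjusted p = 0.00519). RPL9 was at 16.9, 17.9 and 18.4 CPM in nac103-11 and 15.3, 14.6 and 14.1 CPM in WT (log2 fold change 0.27 ± 0.083, adjusted p = 0.0106). RPL1 was at 53.1, 52.6 and 51.7 CPM in nac103-11 and 43.7, 47.7 and 46.1 CPM in WT (log2 fold change 0.19 ± 0.059, adjusted p = 0.0113). RPL1 lost this call in 5 of 15 settings, among them without WT spectinomycin replicate 1 (edgeR adjusted p = 0.0694). RPL9 lost its call in 3 of 15 settings.

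In gun1-101, few plastid ribosomal protein genes changed on spectinomycin. Of the 39 genes, 1 rose (2.56%) and 0 fell relative to gun1-101 on control medium, while 3.22% of all genes tested rose and 7.96% fell. The share of rises was thus near that of all genes, and the median of the 39 was 0.06. The gene was PSRP3, at 9.90, 11.7 and 10.6 CPM on spectinomycin and 9.01, 8.96 and 7.30 CPM on control medium (a log2 fold change of 0.34 ± 0.11, adjusted p = 0.0388). The call was lost in 5 of 15 settings. Among them were the runs without gun1-101 spectinomycin replicate 2 (edgeR adjusted p = 0.195) or 3 (0.0751) and without gun1-101 control replicate 2 (0.0512) or 3 (0.225). Under the other settings run, the number of genes that rose was 0 to 5 and none fell.

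The response in gun1-101 was lower than in WT for 9 genes and higher for 1, while 10.8% of all genes tested were lower and 13.7% higher. The median difference was -0.19. Without WT control replicate 2 the counts were 12 lower and 0 higher, while 12.8% of all genes tested were lower and 14.8% higher. Of the 10 green-tissue markers 5 had a lower response in gun1-101 and 0 a higher one, with a median difference of -0.66 (8 lower without WT control replicate 2), and their part in the result was not tested. RPL13 differed by -0.48 ± 0.092 (adjusted p = 6.60e-05), at 29.4, 27.7 and 26.4 CPM in gun1-101 on spectinomycin and 26.8, 28.0 and 24.8 CPM in gun1-101 on control medium. RPL29 differed by -0.45 ± 0.10 (adjusted p = 0.000485) and RPL27 by -0.45 ± 0.094 (adjusted p = 0.000283). The gene with a higher response in gun1-101 was RPL1, by 0.27 ± 0.087 (adjusted p = 0.0161), at 52.2, 51.9 and 52.3 CPM on spectinomycin and 48.6, 49.3 and 42.7 CPM on control medium in gun1-101. The total count of 10 was 6 without gun1-101 control replicate 3, with all 6 lower.

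On spectinomycin, 12 of 39 genes were lower in gun1-101 than in WT and 4 were higher, while 29.3% of all genes tested were lower and 27.7% higher, so the share of lower genes was near that of all genes. With library totals 32 were lower and 0 higher, and with limma on log2(TPM + 1) 31 were lower and 0 higher. The median of all genes tested also moved lower with library totals, as given above. RPL4, which lines the exit tunnel of bacterial ribosomes, was at 27.9, 31.1 and 29.8 CPM in gun1-101 and 40.0, 37.7 and 40.0 CPM in WT (log2 fold change -0.41 ± 0.076, adjusted p = 1.51e-05). RPL13 was at 29.4, 27.7 and 26.4 CPM in gun1-101 and 35.9, 35.6 and 36.1 CPM in WT (log2 fold change -0.36 ± 0.062, adjusted p = 3.06e-06). Both genes kept the lower call under every setting run. RPS10 went the other way at 56.9, 57.1 and 56.3 CPM in gun1-101 and 45.3, 49.4 and 43.6 CPM in WT (log2 fold change 0.30 ± 0.062, adjusted p = 6.34e-05). RPS10 lost the call in 4 of 15 settings, among them library totals (edgeR adjusted p = 0.267). The 8 markers of dividing cells summed to 45.8 to 47.2 TPM in gun1-101 and 74.1 to 77.0 TPM in WT, with 7 of 8 lower, and their part in the result was not tested.

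On control medium the comparison of gun1-101 with WT changed direction with the scaling. With TMM 7 genes were higher in gun1-101 and 0 lower, against 24.7% and 15.8% (together 40.5%) of all genes tested, and with library totals 1 was higher and 15 lower. Without WT control replicate 2 the TMM counts were 10 and 0, while 25.2% of all genes tested were higher and 16.2% lower. The share of higher genes was then near that of all genes. The count of 7 was 3 without WT control replicate 1, 3 without WT control replicate 3 and 4 without gun1-101 control replicate 2. RPS21, annotated as GHS1 (glucose hypersensitive), was at 18.2, 19.4 and 18.3 CPM in gun1-101 and 14.8, 14.0 and 13.7 CPM in WT (log2 fold change 0.39 ± 0.083, adjusted p = 0.000151) and was higher under every setting run. RPS10 was at 53.4, 55.1 and 56.2 CPM in gun1-101 and 47.3, 41.5 and 42.9 CPM in WT (log2 fold change 0.32 ± 0.064, adjusted p = 5.87e-05; 0.072 with library totals). PSRP3 was at 9.01, 8.96 and 7.30 CPM in gun1-101 and 6.29, 6.71 and 5.91 CPM in WT (log2 fold change 0.42 ± 0.12, adjusted p = 0.00485; 0.105 with library totals). The 8 markers of dividing cells summed to 39.7 to 42.8 TPM in gun1-101 and 63.9 to 67.1 TPM in WT, with 7 of 8 lower. The 10 green-tissue markers summed to 528 to 549 TPM in gun1-101 and 283 to 583 TPM in WT, with 8 of 10 higher and 0 lower (10 higher without WT control replicate 2), and the part of both marker lists in the result was not tested.

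**Figure D4:**
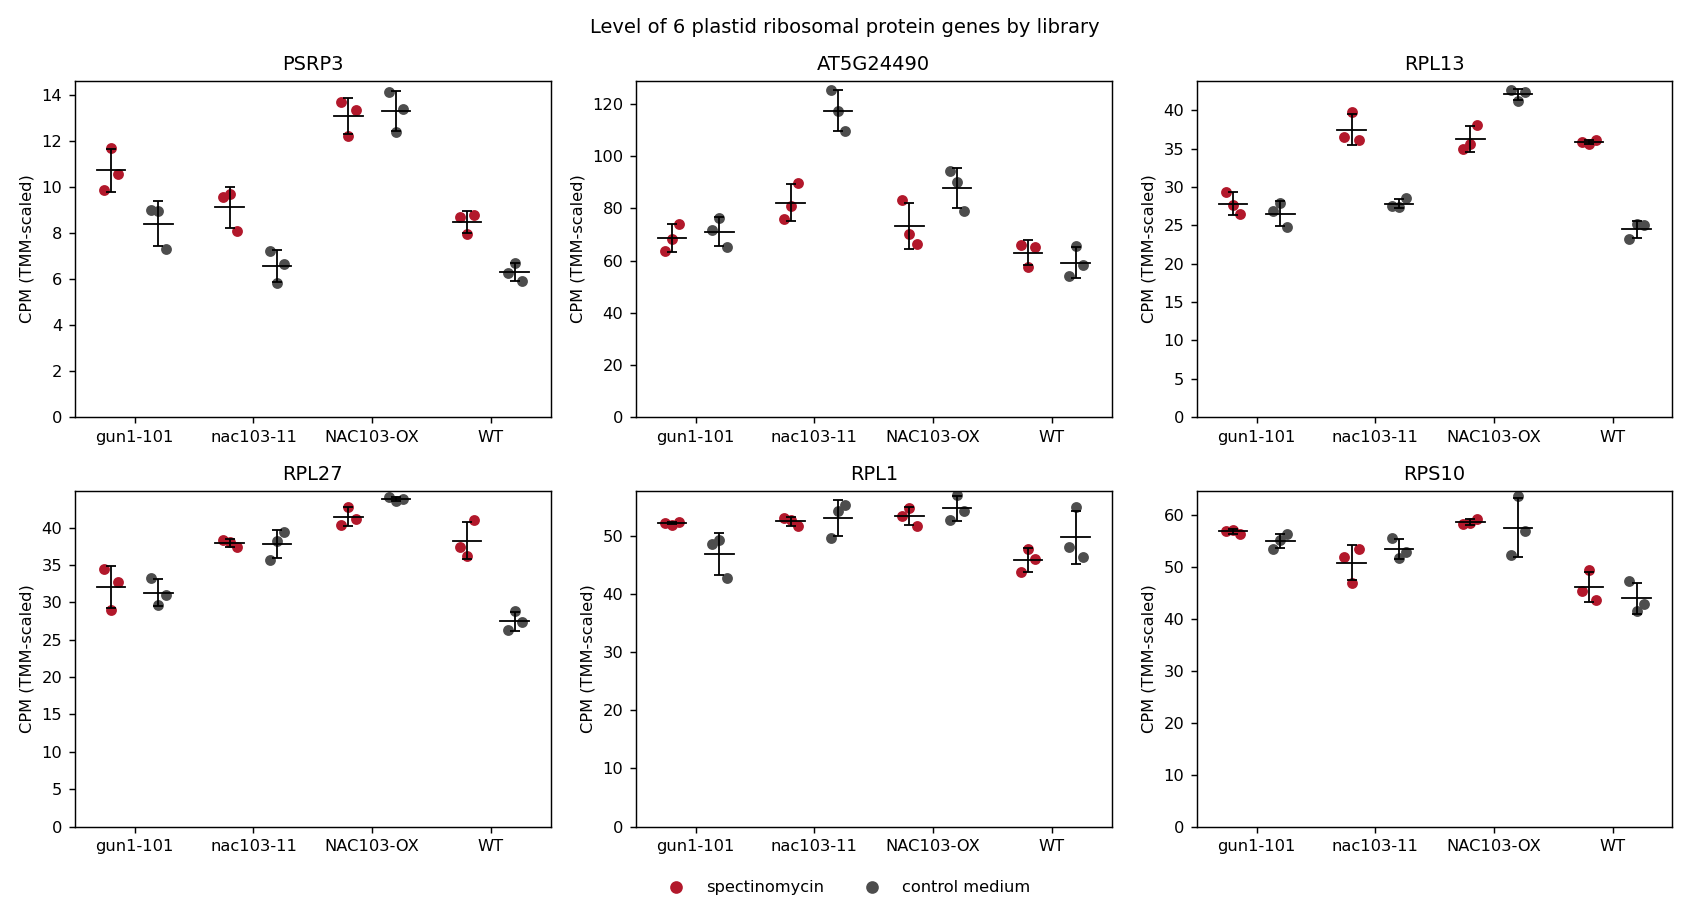
Level in CPM (TMM-scaled) of PSRP3, AT5G24490, RPL13, RPL27, RPL1 and RPS10 in each library, by genotype, with spectinomycin in red and control medium in grey, and bars for the mean ± SD (n = 3). AT5G24490 was highest in nac103-11 on control medium, whereas the other 5 genes had no such peak there. On this scale RPL13 and RPL27 had their lowest group mean in WT on control medium.

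Most of the genes resembled the others in profile over the 8 groups, and a few did not. As a description over 8 group means, the correlation of each gene with the median of the other genes was 0.989 for RPL35 and 0.976 for RPL3, but 0.122 for RPS21, 0.355 for AT5G24490, 0.469 for RPS10 and 0.53 for RPL1. These points share libraries and scaling, and no test was made. RPS21 averaged 18.6 ± 0.703 CPM in gun1-101 and 14.2 ± 0.556 CPM in WT on control medium (SD, n = 3), the highest and the lowest of its group means on this TMM-scaled scale, whereas in TPM its highest group was NAC103-OX on control medium. RPS10 averaged 56.8 ± 0.421 CPM in gun1-101 and 46.1 ± 2.96 CPM in WT on spectinomycin, and 54.9 ± 1.41 CPM in gun1-101 and 43.9 ± 3.00 CPM in WT on control medium. RPL1 averaged 54.7 ± 2.21 CPM in NAC103-OX and 49.8 ± 4.56 CPM in WT on control medium. Over the groups, the ratio of the highest to the lowest mean TPM of a gene was smallest for RPS21, at 1.24, and largest for PSRP3, at 2.27.

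Among the 39 genes are 2 pairs of paralogs, between which similar reads could be split. RPL12A and RPL12C encode the stalk protein that contacts translation factors. RPL12A rose in NAC103-OX on control medium, at 38.0, 43.1 and 42.3 CPM against 30.9, 27.3 and 28.6 CPM in WT, and RPL12C rose too, at 38.7, 45.2 and 46.5 CPM against 27.4, 30.1 and 28.9 CPM in WT (log2 fold changes 0.51 ± 0.080 and 0.59 ± 0.083). In the WT response RPL12C rose (0.34 ± 0.084, adjusted p = 0.00117) and RPL12A had 0.12 ± 0.081 (adjusted p = 0.238), and a difference between them was not tested. RPL12A took 43.6% to 53.1% of the reads of the pair over the 24 libraries. Of the RPL19 pair, AT5G47190 took 46.2% to 63.6%. AT4G17560 was at 12.9, 11.7 and 12.1 CPM in WT on spectinomycin and 8.49, 9.52 and 7.55 CPM in WT on control medium, and AT5G47190 was at 13.8, 11.2 and 11.8 CPM in WT on spectinomycin and 10.2, 9.40 and 8.34 CPM in WT on control medium. Both RPL19 genes rose in WT (log2 fold changes 0.51 ± 0.12 and 0.38 ± 0.11). RSEM divides reads shared by similar copies by estimation, so values of single genes of a pair are uncertain.

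Other ribosomal gene lists were measured in the same libraries. Of 27 genes for plastid translation factors and ribosome assembly, 14 were higher and 1 lower in NAC103-OX than in WT on control medium, with a median of 0.20. Of 36 nuclear genes for mitochondrial ribosomal proteins, 8 were higher and 2 lower (median 0.046), and of 34 genes for cytosolic ribosomal proteins, 3 were higher and 9 lower (median -0.067), while 22.8% of all genes tested were higher and 22.6% lower. When WT control replicate 2 was left out, the plastid translation genes had 15 higher and 1 lower (median 0.34). The mitochondrial genes then had 6 higher and 5 lower (median -0.0012) and the cytosolic genes 1 higher and 11 lower (median -0.095). Of all genes tested, 22.8% were higher and 22.7% lower in that run. These are counts and medians beside those of the 39 genes (36 and 0, median 0.45, and 38 and 0, median 0.49, without that library). No test compared the lists. In the WT response the counts were 8 and 0 for plastid translation factors (median 0.090), 5 and 1 for mitochondrial (median 0.12) and 11 and 1 for cytosolic ribosomal proteins (median 0.052), while 20.1% of all genes tested rose and 20.4% fell. Without WT control replicate 2 they were 12 and 0 for plastid translation, 5 and 1 for mitochondrial and 7 and 0 for cytosolic genes. The order of these lists therefore rests on that library, without which 20.6% of all genes tested rose and 20.8% fell. With library totals the counts were 14 and 0 for plastid translation, 19 and 1 for mitochondrial and 21 and 0 for cytosolic genes. The median of all genes tested moved up as well with that scaling. The plastid translation genes with the smallest p in WT were HCF109 (AT5G36170), a release factor, SCO1 (AT1G62750), the plastid elongation factor G, and AT3G08740, annotated as elongation factor P. Their log2 fold changes were 0.42 ± 0.076, 0.29 ± 0.056 and 0.39 ± 0.089, and the highest adjusted p was 0.000414.

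In gun1-101 and nac103-11 many cytosolic and mitochondrial ribosomal protein genes were lower than in WT on control medium. In gun1-101, 26 of 34 cytosolic and 23 of 36 mitochondrial genes were lower, with 0 and 1 higher, while 15.8% of all genes tested were lower and 24.7% higher. In nac103-11, 32 cytosolic and 21 mitochondrial genes were lower, with 0 and 2 higher, while 20.1% of all genes tested were lower and 23.2% higher. The lower genes without WT control replicate 2 numbered 28 cytosolic and 22 mitochondrial in gun1-101 and 30 and 21 in nac103-11. Of all genes tested, 16.2% were then lower in gun1-101 and 20% in nac103-11. With library totals, 34 of 34 cytosolic genes were lower in each line, and 34 mitochondrial genes were lower in gun1-101 and 30 in nac103-11. The median of all genes tested moved lower as well in both lines with that scaling. The 39 plastid ribosomal protein genes had 7 higher and 0 lower in gun1-101 and 17 higher and 0 lower in nac103-11 with TMM, but 1 higher and 15 lower in gun1-101 and 3 higher and 2 lower in nac103-11 with library totals. In the nac103-11 response to spectinomycin 20 cytosolic and 18 mitochondrial genes rose, with 0 and 1 falling, beside 8 rising and 1 falling of the 39, while 21.4% of all genes tested rose. With library totals 32 of 34 cytosolic, 27 of 36 mitochondrial and 31 of the 39 genes rose, so the gap between these lists depends on the scaling. Of 21 plastid-encoded ribosomal protein genes, 17 were in the table and none passed the filter, and their summed level was 4.92 to 20.8 TPM over the 24 libraries. These libraries were made from RNA selected with oligo(dT), which binds poly(A) tails, and plastid transcripts mostly lack long tails, so the plastid-encoded partners of these proteins were not analysed here.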

How the data were processed

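Poly(A) RNA of 24 root-tip libraries was sequenced, and the authors deposited expected counts, TPM and FPKM per gene, made with RSEM 1.3.1 per the submitters' processing notes; the aligner, genome build and annotation are not given in the sources used here. Of the deposited expected counts 98.3% were whole, and all were rounded. Counts were tested in R 4.3.3 with edgeR 4.0.16 (TMM factors, filterByExpr at min.count 10 and min.total.count 15, robust quasi-likelihood F test, 2-sided), with 1 mean per group over all 24 libraries and Benjamini-Hochberg adjustment over the 19567 genes tested in each of 13 comparisons, at 0.05. SE is the log2 fold change divided by the root of F. CPM uses TMM-scaled library sizes. The deposited TPM values served for sums, for comparing genes and, as log2(TPM + 1) and log2(TPM + 0.1), for limma 3.58.1; the deposited FPKM values served to check ranks. Alternatives were DESeq2 1.42.0, RLE factors, no filter, only the compared groups, a replicate block and leaving out each library, and library totals without TMM, which was chosen after seeing the data. Fits were tested on simulated data. In the WT response, 14 of 50 genes changed by 1.2-fold and 43 of 50 changed by 1.5-fold were called in the right direction. In the difference between the gun1-101 and WT responses the same numbers were 5 and 33. The simulation changed 50 genes at each fold change tried, and only in WT on spectinomycin. In the measured WT response 40.6% of all genes tested were called, so these rates do not give the power of the tests on the measured data. The members and lists were chosen with earlier results of these data known. Genes with full values were the 6 largest and 3 smallest WT responses, the 3 called genes of smallest p in every other comparison, the paralog pairs, the plastid-specific genes and the 3 highest and 3 lowest in TPM; other genes named were chosen after their values were seen, and the separate values of 2 members are not reported here. Of the 24497 identifiers, 24424 matched RefSeq, from which annotations come. Batch was not modelled, since the batch tag equals the group. Depth limits precision only for small changes.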

Additional observations from a re-analysis of the deposited data

Results flagged for a closer look

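The test of the difference between responses called more genes than are listed here, as given above. Those of smallest p were taken, up to 3 for each genotype. Without genes whose values are not reported, this gave 8 results in which another genotype changed on spectinomycin by other amounts than WT. In NAC103-OX the response minus the WT response was -0.77 ± 0.085 for RPL13 and -0.72 ± 0.10 for RPL5 on the log2 scale (SE, edgeR adjusted p 8.12e-10 and 1.53e-07), with both genes higher in NAC103-OX than in WT on control medium. In nac103-11 it was -0.60 ± 0.14 for AT5G24490, -0.47 ± 0.090 for RPL27 and -0.37 ± 0.10 for RPL5 (adjusted p 0.000162 to 0.00993). The RPL5 difference missed the threshold in 3 of 21 settings. Among them were the runs without nac103-11 spectinomycin replicate 1 (edgeR adjusted p = 0.0683) and without WT control replicate 1 (edgeR adjusted p = 0.0526). In gun1-101 it was -0.48 ± 0.092 for RPL13, -0.45 ± 0.10 for RPL29 and -0.45 ± 0.094 for RPL27 (edgeR adjusted p 6.60e-05 to 0.000485). All 8 use the same WT libraries, and these genes are those named for their small p, so their sizes are those of selected genes. Outlying values of these genes were not tested for within groups of 3 libraries, beyond the runs that left out each library.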

How the results depend on the processing

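The rise of the 39 genes in NAC103-OX against WT on control medium kept its direction in every setting run, with 34 to 39 genes higher and 0 lower, and the lower NAC103-OX response had 16 to 26 genes lower and 0 higher. Its summed CPM ratio was 1.38, and 1.43 with library totals. Many other counts moved with limma on TPM, which changes the model as well as the scale, and with library totals. With limma on log2(TPM + 1), log2(TPM + 0.1), log2(TPM + 1) without a filter, and library totals, the genes called numbered 31, 31, 28 and 33 in the WT response, 5, 5, 3 and 4 in the gun1-101 response, 31, 31, 31 and 32 in the nac103-11 response, 31, 31, 30 and 32 for gun1-101 against WT on spectinomycin, and 6, 6, 6 and 5 for nac103-11 against WT on control medium. For gun1-101 against WT on control medium they numbered 16, 16, 13 and 16, now mostly lower. The NAC103-OX response had 0 called with each limma setting and 4 lower with library totals, as with TMM. With library totals 6 were called for nac103-11 against WT on spectinomycin, 5 of them lower. DESeq2 called 0 in the gun1-101 response and 6 in its difference from WT. A fit of the compared groups alone called 3 and 6 there and 4 for gun1-101 against WT on control medium. The cause was not tested beyond the change of scale.

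Leaving out single libraries gave 0 to 1 genes called in the gun1-101 response, 8 to 11 in that of nac103-11, 0 to 3 in that of NAC103-OX and 18 to 23 in that of WT. The differences from the WT response had 6 to 12 genes for gun1-101, 3 to 8 for nac103-11 and 16 to 26 for NAC103-OX. Against WT on spectinomycin it gave 14 to 19, 3 to 5 and 6 to 16, and against WT on control medium 3 to 10, 12 to 20 and 35 to 38, for gun1-101, nac103-11 and NAC103-OX in that order. Of 163 calls of single genes, 92 kept the call and 159 the direction in every setting.

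The reversed single genes were all in gun1-101 against WT, with log2 fold changes near 0. On spectinomycin RPS21 was -0.0043 with library totals, and RPL1 was -0.015 with limma in each TPM setting and -0.040 with library totals. On control medium PSRP4 was -0.017 and -0.0067, and RPL27 was -0.0013 and -0.00046, by limma and library totals in that order.

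With the replicate number as a block, the counts were 1, 9, 4 and 19 for the gun1-101, nac103-11, NAC103-OX and WT responses and 37 for NAC103-OX against WT on control medium. The pairing rests on numbers only: 0 of 84 correlations between same-numbered libraries were over 0.1, with a range of -0.0744 to 0.0771, and no sample pairing is stated in the labels. Depth limits small changes in the lowest genes.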
